A study of Mus musculus with 6 samples.

Results

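The BCL2 family of apoptosis regulators was followed in polyadenylated RNA of whole mouse testes. Its 10 members studied here are Bcl2, Bcl2l1, Bcl2l2, Mcl1, Bax, Bak1, Bid, Bbc3, Pmaip1 and Bcl2l11. They were taken by gene symbol, and all 10 were present among the 21786 symbols shared by the 6 deposited libraries. The libraries fall into 2 groups on a C57BL/6 background. Of these, 3 came from grossly enlarged testes of Stra8 -/- males aged 1 year, which the labels describe as made up mostly of cells resembling type A spermatogonia. The other 3 came from whole testes of Stra8 +/+ males aged 2 to 4 months. Age and testis enlargement go together with genotype in this design, so their effects cannot be told apart.

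The family controls the mitochondrial route of programmed cell death. Bax and Bak1 encode proteins that open pores in the outer mitochondrial membrane and so release cytochrome c, which activates caspases. Bcl2, Bcl2l1 (BCL-xL), Bcl2l2 (BCL-w) and Mcl1 encode guardians that bind and hold back the pore formers, and the BH3-only proteins, here Bid, Bbc3 (PUMA), Pmaip1 (NOXA) and Bcl2l11 (BIM), sense damage or growth factor loss and antagonise the guardians or activate the pore formers. In the mouse testis the family is best known for the wave of germ cell death in young males and for the sterility of males that lack Bax or Bcl2l2.

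Levels are given as CPM, reads scaled by library total and by edgeR's TMM factors. A change is the log2 of the level in Stra8-deficient relative to wild-type testes, and its standard error (SE) is approximate. A positive change means higher in Stra8-deficient testes, and a gene was called when its Benjamini-Hochberg adjusted p from edgeR's quasi-likelihood test, over 15018 tested genes, was under 0.05. All 10 members passed the low-count filter. Each Stra8-deficient library held 7883466 to 12425689 gene reads, and each wild-type library 6733128 to 8937224. Each label describes the testis of a male mouse and a replicate number but does not say that the males were different, so p-values measure the spread between these libraries, which may be technical. Stra8 itself was read 211, 249 and 270 times in the Stra8-deficient and 120, 132 and 93 times in the wild-type libraries. The deleted part of the allele is not given in the sources used here, so these reads do not check the labels.

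Markers of several cell types differed together with genotype. Summed levels of 8 markers of undifferentiated spermatogonia were 1135 to 1869 CPM in Stra8-deficient and 36.1 to 44.7 CPM in wild-type libraries. For 7 spermatid markers the sums ranged over 3.34 to 10.5 CPM in Stra8-deficient against 20630 to 23900 CPM in wild-type libraries, with Spata3 at 0 reads in the Stra8-deficient ones. For 8 macrophage markers the sums were 360 to 1089 CPM in Stra8-deficient against 25.7 to 34.9 CPM in wild-type libraries. The third Stra8-deficient library stood apart from the other two in somatic markers, with the highest Sertoli cell and macrophage sums of its group. It held the highest sum of 7 Leydig cell markers, 2705 CPM in a Stra8-deficient range that began at 18.4 CPM, against 777 to 1272 CPM in wild type, and it was counted on a longer gene list. In whole-tissue RNA, fewer cells of a type and less RNA per cell cannot be told apart. The part of these shifts in cell makeup in the results below was not tested.

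Of the 10 members, 4 rose (Bax, Bid, Pmaip1 and Bcl2l11), 4 fell (Bak1, Bcl2l2, Bcl2l1 and Mcl1) and 2 were not called (Bcl2 and Bbc3). Over all tested genes 39.0% were called higher and 36.7% lower, 75.8% in either direction, so the members' 8 of 10 called is near the background. Libraries of the genotypes did not overlap for 8 of 10 members and for 80.2% of all tested genes, and the family did not stand out by how many of its members changed. All 4 falls had values above 0 after scaling to the Sertoli cell markers, and that of Mcl1 also with library size alone. Of all called genes 51.5% were higher, a share that was 63.6% with library size alone. Under the Sertoli cell scaling it was 88.6%. The median log2 fold change was -0.05 over the members and 0.11 over all tested genes. Without the third Stra8-deficient library, changes were 4.21 for Bax, 3.41 for Bid, 2.81 for Pmaip1, 1.04 for Bcl2l11, -2.60 for Bak1, -1.75 for Bcl2l2, -0.64 for Bcl2l1 and -0.38 for Mcl1, and of these Bcl2l1 alone was no longer called.

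Among the members Bax and Bid had the largest rises and Bak1 the largest fall. The 250 bases before their RefSeq transcription starts are shown first to set these 3 promoters side by side. They come from RefSeq on GRCm38.p6, a later build than the mm9 named by the submitters, and 9 of the 10 members matched that table. The windows lie at chr7:45466899-45467148 (Bax), chr6:120916825-120917074 (Bid) and chr17:27028628-27028877 (Bak1), all on the minus strand and written 5′ to 3′. The GENCODE M21 annotation starts Bak1 at base 27029009, so the Bak1 window lies inside that gene model. It starts Bid at base 120916853, inside the Bid window, and Bax at base 45466898, next to the Bax window. The 3 windows are thus not placed alike by that annotation, which limits their comparison. Capitals mark the GC box GGGCGG on either strand and the E-box CACGTG.
Bax: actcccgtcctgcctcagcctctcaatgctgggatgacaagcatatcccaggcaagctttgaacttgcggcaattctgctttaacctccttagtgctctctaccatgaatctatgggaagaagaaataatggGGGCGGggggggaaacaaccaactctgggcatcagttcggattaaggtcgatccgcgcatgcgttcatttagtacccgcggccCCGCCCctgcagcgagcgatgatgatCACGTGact
Bid: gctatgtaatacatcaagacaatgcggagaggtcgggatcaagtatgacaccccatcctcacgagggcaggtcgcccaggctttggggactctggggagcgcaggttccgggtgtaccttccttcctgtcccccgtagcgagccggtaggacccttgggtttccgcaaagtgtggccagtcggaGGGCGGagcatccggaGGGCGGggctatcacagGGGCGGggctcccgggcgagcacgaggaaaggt
Bak1: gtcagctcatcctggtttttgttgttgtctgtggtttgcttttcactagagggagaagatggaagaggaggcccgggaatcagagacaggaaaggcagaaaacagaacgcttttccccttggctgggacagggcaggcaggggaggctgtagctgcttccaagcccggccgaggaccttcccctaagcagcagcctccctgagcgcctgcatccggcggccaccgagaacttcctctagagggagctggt
The Bax window held GGGCGG at 2 places and CACGTG at 1, that of Bid held GGGCGG at 3 places, and that of Bak1 held neither. The letters GGGCGG occurred on either strand in 32.7% and CACGTG in 6.02% of 32851 windows of the same length. A p53 half-site, searched by its consensus on both strands, occurred in 7.13% of all windows, at 1 place in that of Bax and in neither of the other two. These motifs do not overlap in the windows printed. Among members not printed, GGGCGG lay at 7 places for Bcl2 and at 1 each for Mcl1 and Bcl2l2. It lay at 5, 1 and 7 places in the windows of Bbc3, at 3 and 2 in those of Bcl2l11 and at 0 in those of Bcl2l1. CACGTG also lay at 1 place in a window of Bbc3. The printed windows were picked by size of change and do not stand for the family. GC content was 54% for Bax, 63.6% for Bid and 58.4% for Bak1, with a median of 52.4% over all windows. These matches describe the letters of the windows and no binding was measured.

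The pore-forming pair went in opposite directions. Bax, on chromosome 7, was read 2013, 2226 and 2643 times in the Stra8-deficient and 66, 84 and 61 times in the wild-type libraries, which is 202, 212 and 177 CPM against 10.3, 11.9 and 11.2 CPM. Every Stra8-deficient library lay far above every wild-type one. Bax rose by 4.15 ± 0.18 on the log2 scale, 17.7-fold (adjusted p = 1.14e-07). In the annotation of GRCm38 the exons of Bax share 12.2% of their length with a same-strand gene model, Gm45808, that is not in the counted lists.

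Bak1, on chromosome 17, was read 49, 36 and 123 times in the Stra8-deficient and 182, 158 and 136 times in the wild-type libraries. Its levels were 4.92, 3.43 and 8.24 CPM against 28.4, 22.3 and 24.9 CPM, so the groups did not overlap, although the third Stra8-deficient library was the highest of its group. Bak1 fell by 2.17 ± 0.34, to 0.221 of the wild-type level (adjusted p = 3.11e-04). Ggnbp1, a gene known from germ cells, runs on the opposite strand across the Bak1 locus and shares 18.2% of the length of the Bak1 exons in the longer-shared of its 2 gene models. Ggnbp1 was read 241 times in the Stra8-deficient and 19473 times in the wild-type libraries. Strand handling of the counts is not stated, so reads of the pair cannot be told apart where they overlap, and the level of Bak1 in wild type is uncertain to that extent.

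**Figure D1:**
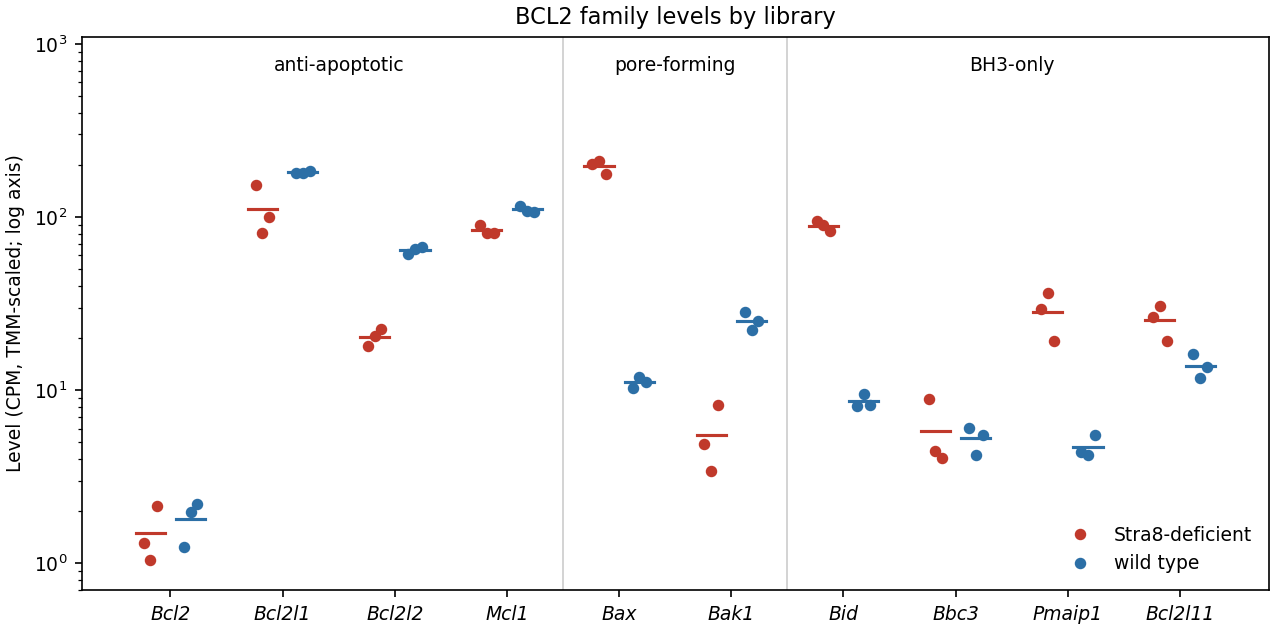
Levels of the 10 members in each library, in CPM on a log axis, with Stra8-deficient libraries (red) left of wild-type libraries (blue) for each gene. Points are libraries and bars the means of 3; Bax and Bid lie highest above wild type, and the points of Bcl2 and of Bbc3 overlap between the genotypes.

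Within each library Bax outnumbered Bak1 by 41.1, 61.8 and 21.5 reads to 1 in the Stra8-deficient testes, against 0.363, 0.532 and 0.449 to 1 in wild type. A ratio within a library does not depend on how libraries are scaled. It does carry the uncertainty in the wild-type level of Bak1 where Ggnbp1 overlaps it, as does the per-length level of Bak1 below. The mean log2 ratio reached 5.25 ± 0.77 in Stra8-deficient libraries, against -1.18 ± 0.28 in wild-type libraries (SD, n = 3 each), a difference of 6.42 (exact two-sided permutation p = 0.1, the smallest that 3 against 3 libraries allow). Per kilobase of the longest coding transcript in GENCODE M21, Bax stood at 179 ± 16.4 CPM per kb and Bak1 at 2.32 ± 1.03 CPM per kb in Stra8-deficient testes. In wild-type testes they were at 10.1 ± 0.709 and 10.6 ± 1.28 CPM per kb (SD, n = 3 each), with overlapping libraries, so on this per-length scale their levels did not differ beyond the spread.

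Among the BH3-only members 3 of 4 rose and none fell, where 75.8% of all tested genes were called and 39.0% were higher. Bid encodes a protein that caspase-8 cleaves and that then activates the pore formers. It was read 946, 947 and 1233 times in the Stra8-deficient and 52, 67 and 45 times in the wild-type libraries, or 95.0, 90.2 and 82.6 CPM against 8.12, 9.46 and 8.25 CPM. All 3 Stra8-deficient libraries were close together and above all wild-type ones. Bid rose by 3.37 ± 0.19, 10.3-fold (adjusted p = 4.28e-07). The exons of Bid share 17.7% of their length with those of Bcl2l13 on the opposite strand. Bcl2l13 was read 4938 times in the Stra8-deficient and 1579 times in the wild-type libraries, a log2 change of 0.79. As strand handling is not stated, reads of Bid and Bcl2l13 cannot be told apart where they overlap. The level of Bid is uncertain to that extent, and the part of this overlap in its rise was not tested.

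Pmaip1 encodes NOXA, which binds MCL1 above all. Its levels were 29.4, 36.5 and 19.2 CPM in Stra8-deficient and 4.37, 4.24 and 5.50 CPM in wild-type libraries, from 293, 383 and 286 against 28, 30 and 30 reads. The lowest Stra8-deficient library, the third, still lay above every wild-type one. Pmaip1 rose by 2.59 ± 0.31, 6.03-fold (adjusted p = 5.45e-05).

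Bcl2l11 encodes BIM, which binds all of the guardians. It was measured at 26.5, 30.7 and 19.4 CPM in Stra8-deficient and 16.2, 11.7 and 13.6 CPM in wild-type libraries, a smaller change with a narrow gap between the groups. Bcl2l11 rose by 0.88 ± 0.25, 1.84-fold (adjusted p = 0.0106), and without the second wild-type library it was not called (0.76, adjusted p = 0.0636).

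Bbc3 encodes PUMA, a p53-induced killer. It was read 89, 47 and 61 times in the Stra8-deficient and 39, 30 and 30 times in the wild-type libraries, or 8.93, 4.48 and 4.09 CPM against 6.09, 4.24 and 5.50 CPM. The groups overlapped, and only the first Stra8-deficient library lay above all wild-type ones. Its log2 fold change was 0.14 ± 0.40 (adjusted p = 0.757).

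With TMM scaling 3 of the 4 guardians were called lower and 1 was not called, where 36.7% of all tested genes were lower. Only 1 was called lower with library size alone or with upper-quartile factors. After scaling to the Sertoli cell markers 0 were called lower and 3 higher. Bcl2l2 encodes BCL-w, which male mice need to keep germ cells and Sertoli cells alive in adulthood. It was read 179, 215 and 335 times in the Stra8-deficient and 391, 466 and 364 times in the wild-type libraries, or 17.97, 20.5 and 22.4 CPM against 61.1, 65.8 and 66.8 CPM. The groups lay well apart. Bcl2l2 fell by 1.67 ± 0.18, to 0.315 of the wild-type level (adjusted p = 3.02e-05). A read-through gene model that joins Bcl2l2 to Pabpn1, Gm20521, shares 13.3% of the length of the Bcl2l2 exons and is not in the counted lists. Summed levels of 10 Sertoli cell markers were 91.8 to 677 CPM in Stra8-deficient and 1635 to 1826 CPM in wild-type libraries. Of these markers 9 were called lower and 1, Wt1, was not called. Clu alone held 121, 31.1 and 586 CPM of the sums in Stra8-deficient and 1442, 1265 and 1367 CPM in wild-type libraries. A link of Bcl2l2 to these markers was not tested.

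Bcl2l1 gives rise to the long protecting form BCL-xL and to a short form that promotes death, which gene counts do not separate. Its levels were 154, 80.4 and 100 CPM in Stra8-deficient and 179, 180 and 185 CPM in wild-type libraries, from 1535, 844 and 1497 against 1149, 1278 and 1009 reads. The Stra8-deficient libraries were spread over a wide range, while the wild-type ones were nearly equal. Bcl2l1 fell by 0.70 ± 0.24, to 0.614 of the wild-type level (adjusted p = 0.0233). The call was lost without the third Stra8-deficient library (-0.64, adjusted p = 0.0574) or without any 1 of the wild-type libraries (-0.70 to -0.73, adjusted p = 0.0550 to 0.0631). It was also lost with upper-quartile factors (-0.43, adjusted p = 0.132) and with library size alone, where the value was near 0 (-0.08, adjusted p = 0.776). Leaving out the first Stra8-deficient library gave -1.04 (adjusted p = 4.22e-04).

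Mcl1 encodes a short-lived guardian that is made and degraded quickly. It was measured at 90.4, 80.7 and 81.1 CPM in Stra8-deficient and 116, 109 and 107 CPM in wild-type libraries, a small difference with no overlap. Mcl1 fell by 0.40 ± 0.15, to 0.759 of the wild-type level (adjusted p = 0.0387), and was not called without any 1 of the wild-type libraries (-0.37 to -0.43, adjusted p = 0.0891 to 0.145). In the authors' deposited table Mcl1 had the same log2 ratio, -0.40, with a corrected p of 0.252, and Bcl2l1 had -0.70 with a corrected p of 0.0416.

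Bcl2, the founding member, was close to the limit of what these libraries detect. It was read 13, 11 and 32 times in the Stra8-deficient and 8, 14 and 12 times in the wild-type libraries, or 1.30, 1.05 and 2.14 CPM against 1.25, 1.98 and 2.20 CPM. The groups overlapped, and the third Stra8-deficient library was the highest of its group. The log2 fold change was -0.24 ± 0.44 (adjusted p = 0.625), and the SE is larger than the change called for Mcl1, so a change of that size was not detectable for Bcl2 at this depth.

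**Figure D2:**
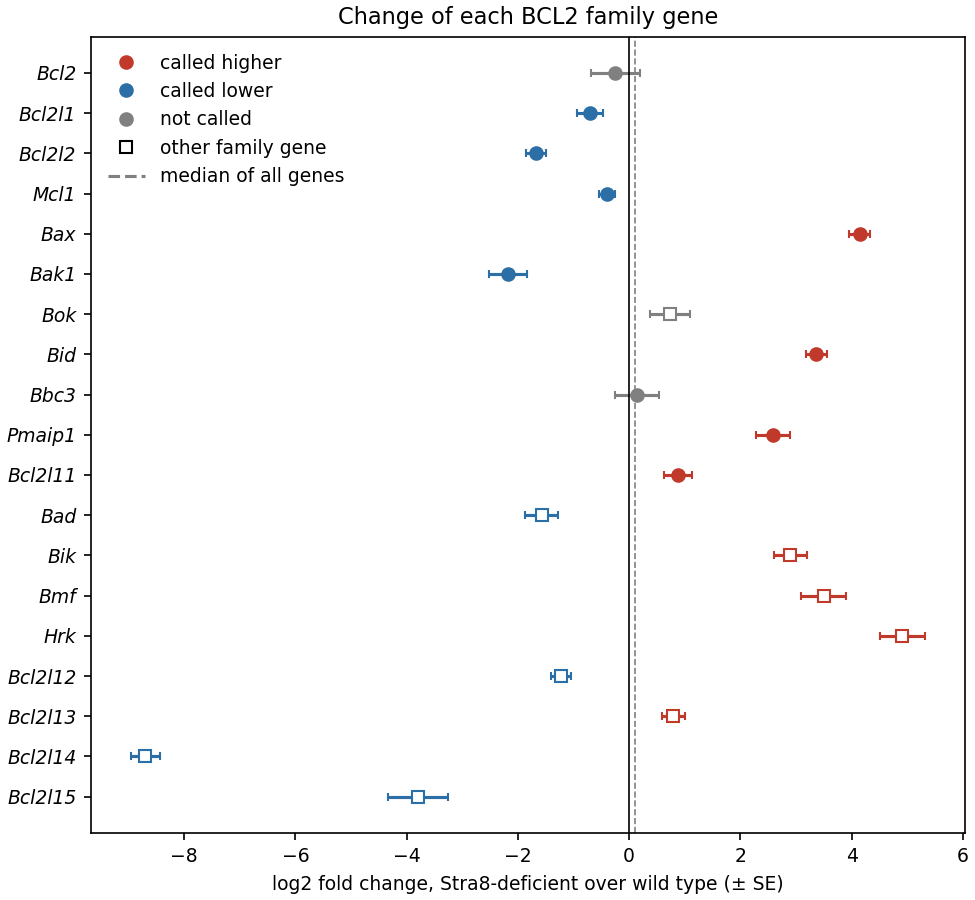
Log2 change in Stra8-deficient relative to wild-type testes, with its SE, for the 10 members (filled circles) and the 9 other tested family genes (open squares), coloured by call. The dashed line is the median of all tested genes, 0.11; Bax and Hrk lie farthest to the right and Bcl2l14 farthest to the left.

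Ordered by level per kilobase of transcript, the 10 members differed between the genotypes at the top. In Stra8-deficient testes Bax was highest at 179 ± 16.4 CPM per kb, followed by Bcl2l1 at 43.5 ± 14.8, Bid at 40.8 ± 2.85, Mcl1 at 24.6 ± 1.61 and Pmaip1 at 10.4 ± 3.20 CPM per kb (SD, n = 3 each). In wild-type testes the guardians led, with Bcl2l1 at 70.7 ± 1.18, Mcl1 at 32.4 ± 1.44 and Bcl2l2 at 16.9 ± 0.802 CPM per kb, ahead of Bak1 and Bax (SD, n = 3 each). Bcl2 was lowest in both, at 0.208 ± 0.0797 CPM per kb in Stra8-deficient and 0.252 ± 0.0692 CPM per kb in wild-type testes. Neighbours whose libraries overlapped were Bcl2l1 and Bid, Bcl2l2 and Bcl2l11, Bcl2l11 and Bbc3, and Bbc3 and Bak1 in Stra8-deficient testes. In wild-type testes they were Bak1 and Bax, and Bbc3 and Bcl2l11. Outside the 10 members, wild-type levels were 219 ± 13.1 for Bcl2l14, 42.6 ± 1.24 for Bcl2l12 and 32.9 ± 2.58 CPM per kb for Bad (SD, n = 3 each). The lead of the guardians in wild type thus holds among the 10 members only. The lengths come from an annotation of a later build than the authors used.

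**Figure D3:**
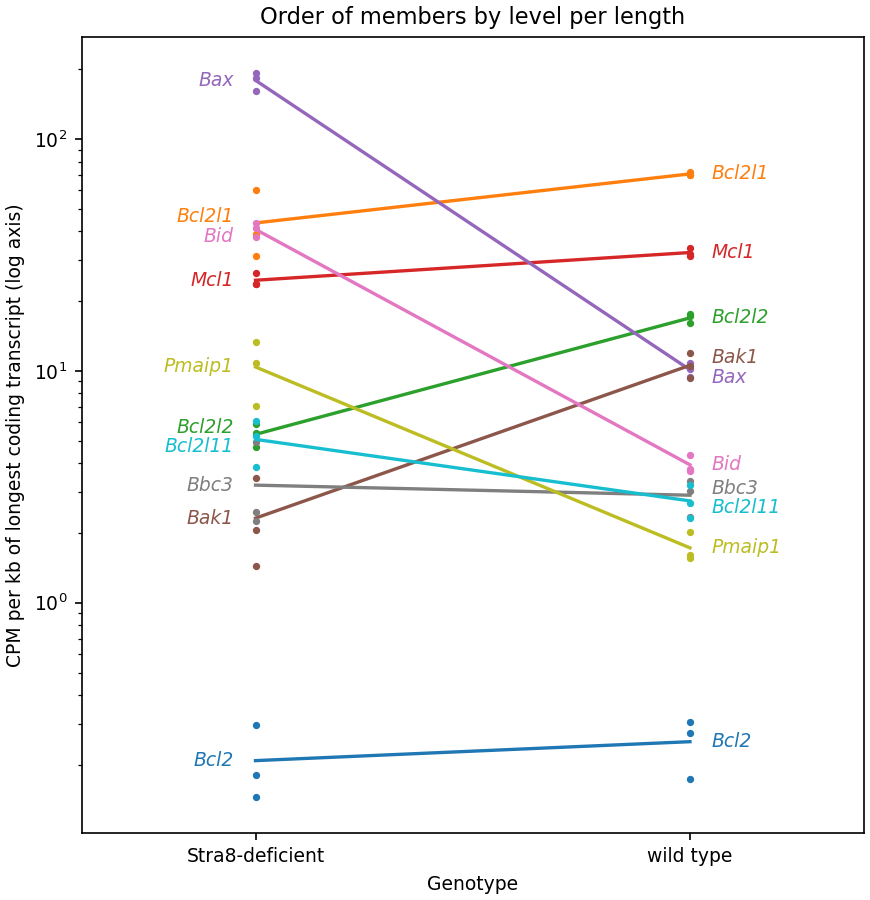
Level of each member per kilobase of its longest coding transcript, in CPM per kb on a log axis, with Stra8-deficient at the left and wild type at the right. Points are libraries and lines join the means. Bax is first at 179 CPM per kb at the left and level with Bak1, near 10 CPM per kb, at the right. The wild-type level of Bak1 is uncertain where Ggnbp1 overlaps it.

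Guardian reads were set against pore-former reads within each library, for 4 guardians over Bax and over Bak1, 8 ratios in all. These ratios are not corrected for transcript length. In whole-tissue RNA the reads of a pair need not come from the same cells, and protein was not measured. Reads of Bcl2l1 per read of Bax numbered 0.763, 0.379 and 0.566 in Stra8-deficient and 17.4, 15.2 and 16.5 in wild-type libraries, a log2 difference of -4.90. For Mcl1 over Bax they were 0.448, 0.381 and 0.458 against 11.3, 9.17 and 9.57, a difference of -4.54. For Bcl2l2 over Bax they were 0.0889, 0.0966 and 0.127 against 5.92, 5.55 and 5.97, a difference of -5.82. Each of these guardians thus had fewer reads than Bax in every Stra8-deficient library and more than Bax in every wild-type library. Bcl2 had fewer reads than Bax in all 6 libraries, with a log2 difference between genotypes of -4.44.

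Over Bak1 the same ratios went the other way, though the wild-type reads of Bak1 are uncertain where Ggnbp1 overlaps it. Reads of Bcl2l1 per read of Bak1 numbered 31.3, 23.4 and 12.2 in Stra8-deficient and 6.31, 8.09 and 7.42 in wild-type libraries, a log2 difference of 1.52. For Mcl1 over Bak1 they were 18.4, 23.5 and 9.85 against 4.09, 4.87 and 4.29, a difference of 1.88. The third Stra8-deficient library had the lowest value of its group in both, above every wild-type library. Bcl2 over Bak1 differed by 1.98. Bcl2l2 over Bak1 overlapped between the genotypes, at 3.65, 5.97 and 2.72 against 2.15, 2.95 and 2.68, with a difference of 0.60 (exact two-sided permutation p = 0.2). The other 7 ratios had p = 0.1, the smallest these exact permutation tests allow, and 0.114 after adjustment over the 8.

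**Figure D4:**
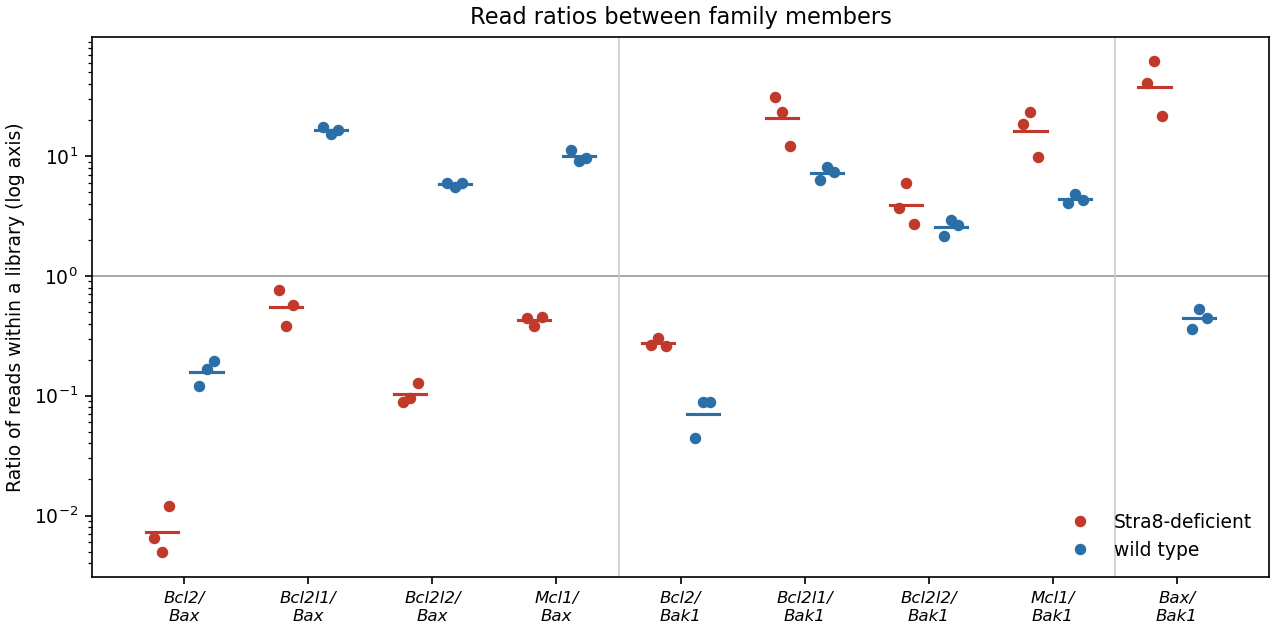
Ratios of reads between members within each library, on a log axis, with Stra8-deficient libraries (red) left of wild-type libraries (blue). Points are libraries and bars geometric means. The guardians over Bax are lower in Stra8-deficient testes, where Bcl2l1, Bcl2l2 and Mcl1 fall below 1. Bax over Bak1 is 21.5 to 61.8 against 0.363 to 0.532, and wild-type reads of Bak1 are uncertain where Ggnbp1 overlaps it.

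The rest of the family comprised 14 listed genes, of which 9 could be tested. Of these 4 rose, 4 fell and 1 was not called, with a median of 0.74. Over all tested genes 39.0% were called higher and 36.7% lower, 75.8% in either direction. The risers included BH3-only genes with few reads in wild type. Hrk, known from neurons that die on loss of growth factor, was read 116, 94 and 140 times in Stra8-deficient and 2 times in each wild-type library, and rose by 4.92 ± 0.41 (adjusted p = 5.63e-06). Bmf, whose product senses detachment, had 29.6, 19.2 and 13.1 CPM against 1.87, 1.41 and 2.20 CPM and rose by 3.50 ± 0.40 (adjusted p = 4.20e-05). Bik rose by 2.90 ± 0.29 (adjusted p = 1.71e-05), at 39.7, 35.4 and 62.2 CPM against 6.56, 6.78 and 4.95 CPM. Bcl2l13, a mitochondrial outer membrane protein, rose by 0.79 ± 0.20 (adjusted p = 0.00568).

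The fallers were led by Bcl2l14, which encodes BCL-G, with 9, 11 and 22 reads in Stra8-deficient and 3145, 3687 and 2518 reads in wild-type libraries. It fell by 8.70 ± 0.26 (adjusted p = 2.71e-08). In the same Stra8-deficient libraries the spermatid markers were near 0, and 7 of 8 markers of meiotic spermatocytes were called lower. A link of Bcl2l14 to either set of markers was not tested. Bcl2l15 fell by 3.79 ± 0.54 (adjusted p = 1.68e-04) on 4 against 33 reads in all. Bad, a BH3-only gene controlled by survival kinases, fell by 1.57 ± 0.30 (adjusted p = 0.00112) and Bcl2l12 by 1.22 ± 0.18 (adjusted p = 2.33e-04), and both of these had positive log2 fold changes after scaling to the Sertoli cell markers. Bok, another pore-forming relative, was not called (0.74 ± 0.36, adjusted p = 0.0865).

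Bcl2l10, known from mouse oocytes, was just under the low-count filter. It was read 23, 38 and 15 times in the Stra8-deficient and 0 times in all 3 wild-type libraries, at least 13.6-fold higher against a limit of 3 reads over the wild-type libraries. The 4 Bcl2a1 copies, known from blood cells, held 10 reads in the Stra8-deficient and 0 in the wild-type libraries, 9 of the 10 in Bcl2a1b. They are near-identical, so their reads are uncertain, and they stood near 0 in the libraries in which the macrophage markers were high.

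Genes that act with or downstream of the family were taken from 5 further lists, 44 genes of which 39 were tested. Of these 18 rose, 9 fell and 12 were not called, with a median of 0.66. The share called is below the 75.8% of all tested genes, and these lists did not stand out by how many of their genes changed. In the list of the apoptosome and caspases 7 of 11 rose, 1 fell and 3 were not called, against 39.0% higher and 36.7% lower over all tested genes. Casp2, which has been linked to DNA damage and mitotic faults, rose by 3.64 ± 0.26 (adjusted p = 2.04e-06). The apoptosome scaffold Apaf1 (1.98 ± 0.29) and its caspase Casp9 (1.86 ± 0.30), named after their values were seen, rose as well. Cflar, an inhibitor of caspase-8, fell by 1.09 ± 0.38 (adjusted p = 0.0267), a value above 0 after scaling to the Sertoli cell markers. Cflar was not called without the first (-0.88, adjusted p = 0.0568) or second (-0.96, adjusted p = 0.0650) Stra8-deficient library, or without wild-type library 1 (-1.10, adjusted p = 0.0647) or 3 (-0.997, adjusted p = 0.0855). Nor was it called with library size alone (-0.48, adjusted p = 0.259) or upper-quartile factors (-0.82, adjusted p = 0.0714). The testis form of cytochrome c, Cyct, was not called (-0.10 ± 0.21, adjusted p = 0.698). Its somatic counterpart Cycs had 4 to 11 reads per library and was not tested.

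Among caspase inhibitors and their antagonists 2 of 7 rose, 2 fell and 3 were not called. Xiap, which blocks caspases directly, rose by 1.75 ± 0.24 (adjusted p = 1.24e-04) and Birc6 by 1.40 ± 0.31 (adjusted p = 0.00275). Birc2 fell by 0.89 ± 0.16 (adjusted p = 6.28e-04) and Diablo, which is released from mitochondria and counters Xiap, by 0.59 ± 0.20 (adjusted p = 0.0237). Both had positive values after scaling to the Sertoli cell markers, and Diablo also with library size alone. Diablo was not called without the third Stra8-deficient library (-0.53, adjusted p = 0.0505) or without any 1 of the wild-type libraries (-0.56 to -0.65, adjusted p = 0.0553 to 0.0831), nor with upper-quartile factors (-0.32, adjusted p = 0.183). Birc2 was not called with library size alone (-0.28, adjusted p = 0.120).

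Of 6 mitochondrial partners, 3 rose, 2 fell and 1 was not called. Endog, a mitochondrial nuclease, rose by 4.00 ± 0.36 (adjusted p = 8.90e-06) and Aifm1, the apoptosis-inducing flavoprotein, by 3.04 ± 0.24 (adjusted p = 3.48e-06). Vdac2, the outer membrane channel that holds BAK, had 24.3, 27.1 and 38.8 CPM in Stra8-deficient and 173, 176 and 158 CPM in wild-type libraries. It fell by 2.49 ± 0.21 (adjusted p = 6.76e-06). Mtch2, the mitochondrial receptor of cleaved BID, fell by 1.65 ± 0.19 (adjusted p = 4.78e-05), while Bid itself rose. After scaling to the Sertoli cell markers Vdac2 and Mtch2 had values above 0.

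Of 11 regulators and targets of p53 and FoxO, 5 rose, 3 fell and 3 were not called. Foxo1, a transcription factor of spermatogonia, rose by 3.35 ± 0.20 (adjusted p = 5.57e-07) and the p53 target Ccng1 by 3.20 ± 0.18 (adjusted p = 4.19e-07). Trp53 itself, named after its value was seen, rose by 1.40 ± 0.27 (adjusted p = 0.00118). Its relatives Trp63 and Trp73 fell by 2.11 ± 0.48 and 1.63 ± 0.38 (adjusted p = 0.00302 and 0.00352), values that were above 0 after scaling to the Sertoli cell markers. Among other p53 targets of the list, named after their values were seen, Phlda3 rose by 2.44 ± 0.28 (adjusted p = 4.53e-05). Zmat3 fell by 1.43 ± 0.24 (adjusted p = 5.43e-04), a value above 0 after scaling to the Sertoli cell markers, and Cdkn1a was not called (-0.24 ± 0.26, adjusted p = 0.413). Of 8 death receptor and ligand genes 4 were tested, with 1 higher, 1 lower and 2 not called. The TRAIL receptor Tnfrsf10b rose by 3.13 ± 0.30 (adjusted p = 1.50e-05), and Ripk1 fell by 0.84 ± 0.23 (adjusted p = 0.00796), again above 0 after scaling to the Sertoli cell markers and not called with library size alone (-0.23, adjusted p = 0.369).

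Across the 6 libraries, the profile of Bax, the member with the highest change, was most like those of Hrk, Endog and Casp2 among the 48 other tested apoptosis genes. The root mean square differences of mean-centred log2 CPM were 0.174, 0.260 and 0.352. For Bak1, the member with the lowest change, they were Vdac2, Bad and Mtch2, at 0.289, 0.292 and 0.387. The difference between genotypes makes up most of such profiles. The log2 CPM used here include a prior count of 2, which narrows the differences of genes with few reads. Hrk had 2 reads in each wild-type library, and its fitted change was 4.92 against 4.15 for Bax. Its first place therefore leans on that prior count, and the order was not tested without it.

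The falls of Bak1, Bcl2l2 and Bcl2l1 changed sign only after scaling to the Sertoli cell markers, and that of Mcl1 also with library size alone. Bak1 and Bcl2l2 stayed called lower with upper-quartile factors (-1.906 and -1.394) and with library size alone (-1.565 and -1.052). Clu, which is part of the Sertoli cell scaling, was read 1203, 326 and 8744 times in the Stra8-deficient libraries, so that scaling rests on an uneven sum. Subtracting the median of all genes removes what scaling changes by construction, so the centred values below show how members stood relative to other genes and do not test the scaling. Scaled to the summed reads of 10 Sertoli cell markers, the median of all genes was 3.33 and all 10 members had positive values. With library size alone that median was 0.73. Relative to the median of all genes, over 16 settings, Bax lay between 3.94 and 4.17, Bid between 3.17 and 3.37, Pmaip1 between 2.26 and 2.77 and Bcl2l11 between 0.62 and 1.00. Bak1 lay between -2.64 and -2.04, Bcl2l2 between -1.86 and -1.69, Bcl2l1 between -1.11 and -0.62 and Mcl1 between -0.57 and -0.42. Bcl2 lay between -0.74 and -0.16, and Bbc3 crossed 0, between -0.40 and 0.30.

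**Figure D5:**
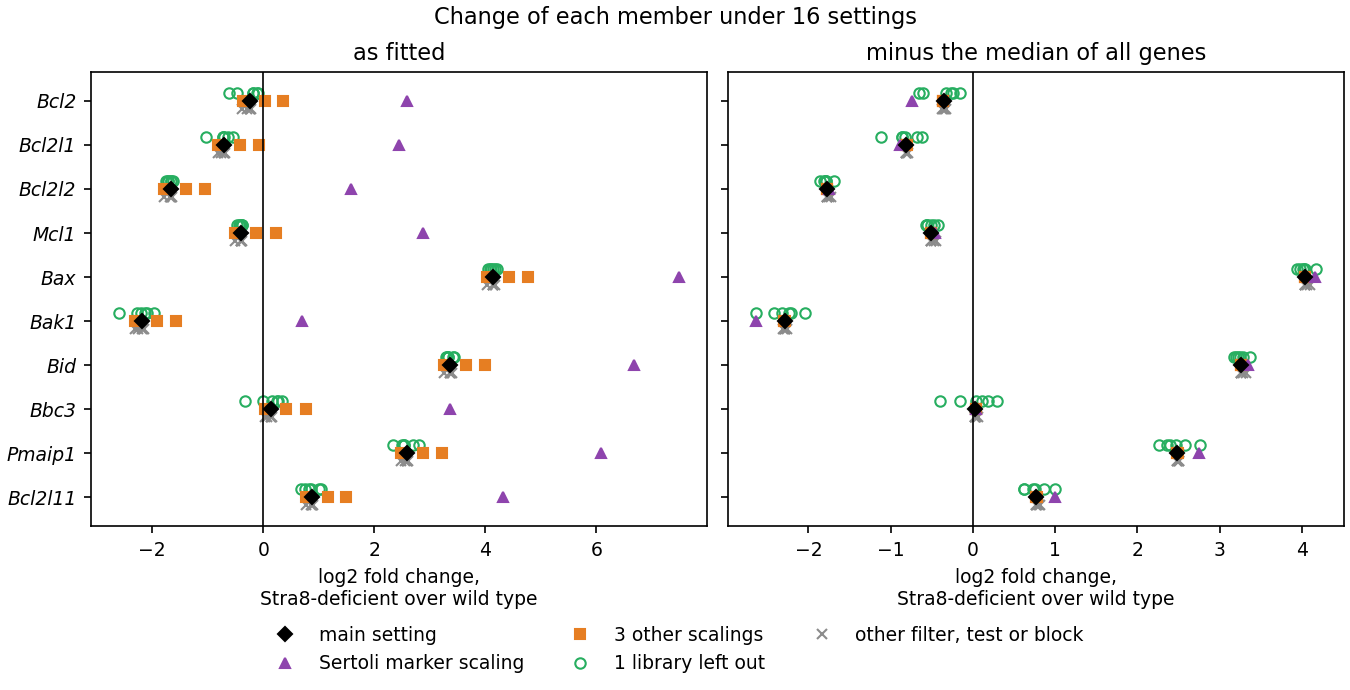
Log2 fold change of each member under 16 settings, as fitted (left) and after subtracting the median of all genes (right), with symbols by kind of setting. At the left, scaling to the Sertoli cell markers (triangles) moves every member up; at the right, where the centring removes the shift of scaling by construction, Bax lies between 3.94 and 4.17 and Bbc3 lies around 0.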

How the data were processed

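Per the submitters' processing notes, TopHat, HTSeq and edgeR were used with the mm9 build, and the versions, roles and gene annotation were not given in the sources used here. Raw read counts, unnormalised, were deposited for each gene symbol in each library. The authors' deposited table of their own comparison holds log2 ratios and p-values, which are cited by name. HTSeq's counters of reads outside genes, 20.9% to 34.5% of a library, were left out. Symbols numbered 23285 in the third Stra8-deficient library and 22055 in each other, and the 21786 shared symbols were used. Columns not matched to a label numbered 0.

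Genes were filtered with filterByExpr, scaled by TMM and tested with glmQLFit (robust) and glmQLFTest in edgeR 4.0.16 (R 4.3.3), with genotype as the one term. The SE was approximated as the absolute log2 change over the root of its F statistic. The model shares its spread between genotypes, although the common biological coefficient of variation was 38.1% among Stra8-deficient libraries and 7.41% among wild-type ones. The code was tested on simulated data with the same spread in both genotypes and few changed genes, equally many each way. That test does not cover the unequal spread or the large share of genes called here. The members and lists were chosen with earlier results of these data known. Named were all members and other family genes, and of each further list the 2 called genes with the largest change each way, of which 1 is not reported here. A limit of 3 reads stands for a count of 0, and it covers counting error only. Alternatives were other scalings, filters and tests, DESeq2 1.42.0 among them, a replicate block and leaving out each library.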

Additional observations from a re-analysis of the deposited data

How the results depend on the processing

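Of the 15 alternatives, Bax, Bid and Pmaip1 kept their direction and call in all. Members called lower numbered 2 with library size alone and 2 with upper-quartile factors. After scaling to the Sertoli cell markers 0 were called lower and 8 higher; leaving out 1 library gave 2 to 4. Values changed sign after scaling to the Sertoli cell markers for Bcl2 (2.59), Bcl2l1 (2.445), Bcl2l2 (1.58), Mcl1 (2.87) and Bak1 (0.69), of which Bcl2l2 and Bak1 were not called. They changed sign for Bcl2 (0.36) and Mcl1 (0.22) with library size alone and for Bcl2 (0.024) with upper-quartile factors, none of them called. Bbc3 ranged from -0.33 to 0.34 when 1 library was left out, with -0.33 without the first Stra8-deficient and -0.013 without the second wild-type library. By construction, these scalings move all genes together. Mcl1 was also not called without a low-count filter (adjusted p = 0.0673) or in edgeR's exact test (adjusted p = 0.0520).

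In alternatives chosen after seeing the data, the other family genes called lower numbered 1 after scaling to the Sertoli cell markers. The genes outside the family called higher numbered 33 under that scaling, and those called lower 0, or 5 with library size alone. Of the 8 guardian ratios, that of Bcl2l2 over Bak1 lay between 0.30 and 0.86 on the log2 scale when 1 library was left out, with 0.30 without the second Stra8-deficient library. All genes called numbered 10357 to 11726 when 1 library was left out. The same-numbered libraries of both genotypes showed little shared deviation (correlations 0.0582, 0.0797 and -0.0404). With few libraries and unequal spread between genotypes, these values cannot exclude that the numbers pair them. With the replicate number as a block, 11218 genes, 4 members higher and 3 lower were called, and Mcl1 was not called (-0.40, adjusted p = 0.0967). Reads of Bcl2, Bbc3 and Bak1 were few, so depth limits what can be said of them.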
